A study of Homo sapiens with 24 samples.

Results

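AMMECR1, CCDC117, KCTD2 and MCC are 4 of the 20345 genes counted in A2058 cells. They were selected on total RNA of the libraries described here, in which they were higher after knockdown of LSM14A. A2058 is an established human melanoma line. The labels of all 24 libraries and the study's methods name it, while a figure legend of the study names A375, another melanoma line, for the translation efficiencies. Transfection was with scrambled siRNA (siCTRL) or siRNA that targets LSM14A (siLSM14A), at 20 nM per siRNA by the study's methods, and cells were left untreated (NT) or exposed to hydroxyurea (HU) at 10 mM for 2 h. Each of the 4 conditions had 3 cultures. Total RNA and RNA from heavy polysomes were sequenced from all 12 cultures, the latter from the dense end of a sucrose gradient. All cells received siRNA, and no untransfected cells were compared. The labels number the replicates without stating what separates them, so the p-values measure the spread between these samples, which may be technical.

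LSM14A is an RNA-binding protein of processing bodies, the cytoplasmic granules that hold mRNAs kept from translation together with decapping enzymes. HU inhibits ribonucleotide reductase and thereby starves DNA replication of nucleotides. The amount of an mRNA in total RNA follows its synthesis and decay, and its share on heavy polysomes follows how many ribosomes load it. The ratio of polysomal to total RNA is the study's measure of translation and is called TE (translation efficiency) below.

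The 4 genes have unrelated known roles. AMMECR1 lies in the region of the X chromosome that is deleted in the AMME contiguous gene syndrome (Alport syndrome, intellectual disability, midface hypoplasia and elliptocytosis). CCDC117 encodes a coiled-coil protein that binds the cytosolic machinery for targeting iron-sulfur clusters to proteins. KCTD2 encodes a BTB-domain protein of the family that presents substrates to the CUL3 ubiquitin ligase. MCC, named for its mutation in colorectal cancers, encodes a protein known to restrain beta-catenin signalling.

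In hg19, AMMECR1 (ENSG00000101935) lies on the minus strand at chrX:109437414-109683546 and CCDC117 (ENSG00000159873) on the plus strand at chr22:29168662-29185289. KCTD2 (ENSG00000180901) lies on the plus strand at chr17:73028670-73061984 and MCC (ENSG00000171444) on the minus strand at chr5:112357803-112824520. Counts are for whole genes, so that transcript forms of 1 gene were not told apart. AMMECR1 shares 350 of its 6804 exon bases with GNG5B on the same strand, for which the table holds no more than 3 counts in any library. KCTD2 shares 340 of 5279 exon bases with ATP5PD and MCC 90 of 10721 with DCP2, both on the opposite strand. CCDC117 overlaps no annotated gene. The library kit keeps the strand, but which strand the authors counted is not given in the sources used here.

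The main transcripts of the 4 genes have 3′ UTRs, a part of an mRNA that RNA-binding proteins bind, above the median length. The 3′ UTR is 4334 bases in AMMECR1, 2969 in CCDC117, 2839 in KCTD2 and 5196 in MCC, against a median of 1333 over 12713 tested genes. These lengths exceed those of 88.6%, 77.4%, 76.0% and 92.6% of the tested genes, respectively. The 3′ UTR makes up 81.0%, 74.9%, 77.6% and 62.6% of the respective transcript. In coding length the genes were not alike, since MCC is long at 3060 bases and AMMECR1, CCDC117 and KCTD2 are short at 1002, 840 and 792 bases (median 1425). In base composition, KCTD2 alone was above the median. Its exons hold 53.2% G and C, against 40.8% in AMMECR1, 43.8% in CCDC117 and 47.3% in MCC (median 47.7%).

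The AU-rich pentamer ATTTA, searched on the transcript strand with overlaps counted, occurs 14 times in the 3′ UTR of AMMECR1, 8 times in that of CCDC117, 9 times in that of MCC and 0 times in that of KCTD2. At least 1 copy is present in 73.4% of all 3′ UTRs, and in 96.9% of the 850 whose length is within 10% of that of KCTD2, with a median of 6 copies. For 3′ UTRs within 10% of the length of the other genes, the median was 10 copies for AMMECR1, 7 for CCDC117 and 11 for MCC. The stretches of 30 bases with most copies are shown to let the pentamers be seen in place, with each pentamer in capitals. They hold 1 copy in AMMECR1, 2 in CCDC117 and 3 in MCC, so that the stretch of AMMECR1 marks no cluster. They lie at chrX:109441026-109441055 (minus strand), chr22:29184042-29184071 (plus strand) and chr5:112357849-112357878 (minus strand) of hg19, at bases 693, 1728 and 5121 after the stop codon. KCTD2 has no such stretch to show. The stretch of MCC lies in the 90 bases that its last exon shares with the last exon of DCP2 on the other strand.
AMMECR1: aatcATTTAtccctattgtgctggttatca
CCDC117: aaagATTTAatgtttaatATTTAaacaaaa
MCC: ctccATTTATTTAtacagagacATTTAtaa

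The Pumilio motif TGTANATA, searched in the same way, occurs once each in AMMECR1 and CCDC117 and in neither KCTD2 nor MCC, where 30.3% of all 3′ UTRs hold it. Among 3′ UTRs within 10% of the length of each gene, the share is 57.0% for AMMECR1, 47.2% for CCDC117, 45.6% for KCTD2 and 60.8% for MCC. The 2 sites are shown with the motif in capitals, at chrX:109439417-109439446 (minus strand) and chr22:29182718-29182747 (plus strand). The 7-base word AACGGAG is absent from all 4 of these 3′ UTRs and is present in 2.06% of all. A match or its absence describes these letters only.
AMMECR1: agatgtgtgtgTGTACATAtacttacacat
CCDC117: acagcttaatgTGTAGATAtgagctgttta

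The 250 bases before the start of each main transcript share no searched motif across the 4 genes. On both strands, the GC box GGGCGG is present in AMMECR1 and KCTD2 (71.6% of all genes), the ETS motif CCGGAAG in CCDC117 and KCTD2 (16%) and CCAAT in KCTD2 (34.6%). TGACGTCA (3.02% of all), CACGTG (9.12%), TGAGTCA (2.44%) and TATAAA (5.17%) are present in 0 of the 4, and MCC holds none of the 7 motifs. The promoters of CCDC117 and KCTD2 are shown as far as no annotated exon touches them, with the motifs in capitals, because they are the 2 that share the rarer ETS motif. They are chr22:29168433-29168661 and chr17:73043081-73043278 of hg19, both on the plus strand.
CCDC117: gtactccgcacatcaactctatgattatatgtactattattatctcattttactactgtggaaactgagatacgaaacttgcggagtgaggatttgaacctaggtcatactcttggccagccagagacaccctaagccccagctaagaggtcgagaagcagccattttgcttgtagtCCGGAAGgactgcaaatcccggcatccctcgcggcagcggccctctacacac
KCTD2: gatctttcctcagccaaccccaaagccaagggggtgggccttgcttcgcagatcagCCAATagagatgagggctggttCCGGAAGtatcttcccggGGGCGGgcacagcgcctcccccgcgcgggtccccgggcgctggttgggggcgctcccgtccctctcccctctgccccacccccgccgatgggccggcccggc

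Total RNA libraries held 24789280 to 40645263 counts and polysomal libraries 28776634 to 44897501. The spread between replicates was larger on polysomes, with a median SD over 12855 genes of 0.19 on the log2 scale against 0.08 in total RNA. Polysomal libraries also differed in how they weighted genes by base composition. The mean log2 level of genes in the upper tercile of exon GC content, relative to the lower tercile and to the mean library, ranged from -0.51 to 0.42 in polysomal libraries and from -0.18 to 0.11 in total RNA. It was lowest in polysomal replicates siCTRL NT 3 (-0.51), siLSM14A NT 1 (-0.48) and siLSM14A HU 3 (-0.36). All 10 markers of the melanocyte lineage were above 1 CPM (counts per 10 to the power of 6), among them SOX10 at 554 to 665 CPM in total RNA. Of 9 matched markers of other cells, EPCAM, CDH1, PTPRC and CD3E had at most 10 counts in any total RNA library, and the sum of the 9 was 119.7 to 135 CPM, mostly KRT18, LUM and KRT8.

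The knockdown was visible in every library. Total RNA of LSM14A was 81.5 to 91.5 CPM in the 6 siCTRL cultures and 6.16 to 8.34 CPM in the 6 siLSM14A cultures. On polysomes it was 29.2 to 54.3 CPM with siCTRL and 1.75 to 2.71 CPM with siLSM14A.

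In total RNA, the contrast on which the genes were selected, each of the 4 genes was higher in every siLSM14A culture than in every siCTRL culture of the same treatment. The share of all genes apart in this way in total RNA was not counted. CPM values are normalised by TMM over the 24 libraries. AMMECR1 showed the widest separation, at 22, 21.9 and 23.4 CPM in siCTRL NT and 37.6, 36.3 and 38.7 CPM in siLSM14A NT (replicates 1, 2 and 3). Upon HU it was 20.9, 21.3 and 23.6 CPM with siCTRL and 32.2, 32.3 and 37.9 CPM with siLSM14A. Even the lowest siLSM14A culture thus exceeded the highest siCTRL culture by a wide margin. On the log2 scale AMMECR1 was higher by 0.74 (SE 0.061) in NT and 0.64 (SE 0.082) in HU.

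CCDC117 came next among untreated cells. Its total RNA was 26.4, 30.2 and 29.6 CPM in siCTRL NT against 43.9, 42.8 and 43.7 CPM in siLSM14A NT. Upon HU it was 27.4, 31 and 31.4 CPM against 39.6, 37.1 and 44.4 CPM. The siLSM14A NT cultures were nearly level with each other, while the HU cultures were spread over several CPM. The log2 fold change was 0.59 (SE 0.064) in NT and 0.43 (SE 0.079) in HU.

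KCTD2, the CUL3 adaptor, had 33.1, 37 and 35.0 CPM of total RNA in siCTRL NT and 52.5, 45.5 and 44.3 CPM in siLSM14A NT. With HU the values were 35.8, 35.2 and 33.2 CPM for siCTRL and 50.9, 47.9 and 49.1 CPM for siLSM14A. Replicate 1 was the highest of the 3 siLSM14A NT cultures. Its log2 fold change was 0.43 (SE 0.077) in NT and 0.50 (SE 0.060) in HU.

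MCC had the smallest change in untreated cells. Its total RNA was 47.9, 41.9 and 44.3 CPM in siCTRL NT and 55.0, 56.2 and 57.0 CPM in siLSM14A NT. In HU it was 42.4, 42.0 and 40.7 CPM with siCTRL and 54.4, 56.9 and 57.0 CPM with siLSM14A. The 6 siLSM14A cultures lay close together in both treatments. The log2 fold change was 0.32 (SE 0.061) in NT and 0.43 (SE 0.056) in HU.

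**Figure D1:**
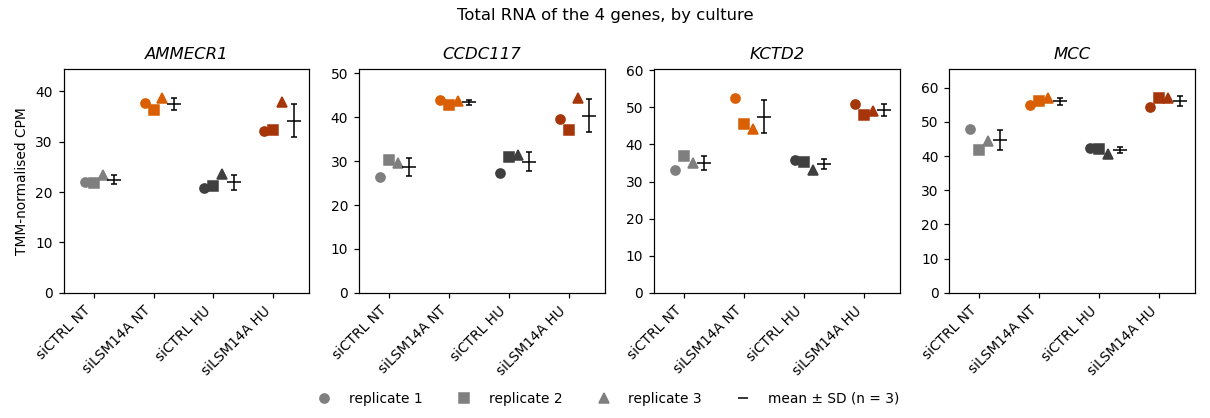
Total RNA of AMMECR1, CCDC117, KCTD2 and MCC in each of the 12 cultures, in TMM-normalised CPM on axes that start at 0. Marker shapes give the replicate number and black bars the mean ± SD of 3 cultures. In every panel the siLSM14A cultures lie above the siCTRL cultures of the same treatment. The genes were selected as higher in total RNA with siLSM14A.

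At an adjusted p under 0.05 in edgeR's quasi-likelihood test, 0.175% of 12544 genes were higher with siLSM14A in NT and 0.240% of 12475 in HU, and all 4 genes were among both. Since total RNA chose them, this is a description. By size of log2 fold change in NT, AMMECR1 was at place 28, CCDC117 at 67, KCTD2 at 177 and MCC at 357 of 12544. In bulk RNA, more RNA per cell and more cells that hold it cannot be told apart.

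Per length of the main transcript, the 4 genes are expressed near the middle of the tested genes. In total RNA of siCTRL NT the level was 4.19 ± 0.165 CPM per kb for AMMECR1, 5.39 ± 0.363 for MCC, 7.25 ± 0.519 for CCDC117 and 9.59 ± 0.526 for KCTD2 (SD, n = 3 each). These levels exceeded those of 37.7%, 42.9%, 50.0% and 57.0% of 12855 genes, respectively. The ranges of the 3 cultures did not overlap between neighbours in this order. With siLSM14A in NT the level per kb was 7.01 ± 0.227 for AMMECR1 and 6.76 ± 0.124 for MCC, and these 2 ranges did overlap.

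Polysomal RNA was then compared, since the genes were selected on total RNA. These libraries come from the same cultures, so higher values in them are not independent of the selection. The 4 genes were higher on heavy polysomes with siLSM14A on average, in both treatments, and for 3 of the 4 the log2 fold change was larger in HU than in NT. None of them passed the test over all genes in edgeR, except AMMECR1 and MCC in HU with the replicate number as a block and those named below under other alternatives. The values are given gene by gene below.

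AMMECR1 had 9.76, 14.6 and 17.4 CPM of polysomal RNA in siCTRL NT and 26.9, 21.3 and 16.3 CPM in siLSM14A NT. Upon HU it had 10.8, 9.35 and 13.6 CPM with siCTRL and 23, 19.8 and 26.6 CPM with siLSM14A. In NT, replicate 3 of siLSM14A fell below replicate 3 of siCTRL, so that the groups overlapped, whereas in HU all siLSM14A cultures were above all siCTRL cultures. The log2 fold change was 0.63 (SE 0.26, unadjusted p of 0.0336, edgeR adjusted p of 1.0) in NT. It was 1.05 (SE 0.19, unadjusted p of 0.000146, edgeR adjusted p of 0.149) in HU, at place 12 of 12256 genes by size. Averaged over both treatments it was 0.85 (SE 0.17, edgeR adjusted p of 0.0996).

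CCDC117 had nearly equal polysomal RNA in the 3 siCTRL NT cultures, at 23.2, 22.7 and 23.7 CPM, and 34.2, 24.9 and 35.6 CPM in siLSM14A NT. Upon HU it had 22.7, 17.5 and 22 CPM with siCTRL and 31.3, 27.4 and 34.3 CPM with siLSM14A. The groups did not overlap in either treatment, though replicate 2 of siLSM14A NT came close to siCTRL. Its log2 fold change was 0.45 (SE 0.19) in NT, 0.59 (SE 0.17) in HU and 0.53 (SE 0.13) on average, with edgeR adjusted p of 1.0, 0.739 and 0.309.

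KCTD2 had 50.4, 52.1 and 41.9 CPM of polysomal RNA in siCTRL NT against 54.5, 69.4 and 64.9 CPM in siLSM14A NT. Upon HU it had 48.3, 51.8 and 44.2 CPM against 62.3, 63.3 and 57.5 CPM. The groups did not overlap in either treatment. Its lowest culture in siLSM14A NT was replicate 1, in which AMMECR1 and MCC were at their highest of that group. Its log2 fold change was 0.38 (SE 0.17) in NT, 0.35 (SE 0.14) in HU and 0.38 (SE 0.098) on average, with edgeR adjusted p of 1.0, 0.739 and 0.446.

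MCC had 21.2, 25.8 and 27.9 CPM of polysomal RNA in siCTRL NT against 38.4, 25.6 and 25.6 CPM in siLSM14A NT. Only replicate 1 of siLSM14A NT lay above siCTRL, and the other two lay inside its range. Upon HU it had 18, 15.3 and 25.7 CPM with siCTRL and 35.1, 28 and 41.1 CPM with siLSM14A, without overlap. The log2 fold change was 0.26 (SE 0.21, edgeR adjusted p of 1.0) in NT and 0.83 (SE 0.22, edgeR adjusted p of 0.739) in HU. The value in NT rested on replicate 1 of siLSM14A NT, and it was 0.03 without that culture. On average over the treatments it was 0.55 (SE 0.16, edgeR adjusted p of 0.672).

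**Figure D2:**
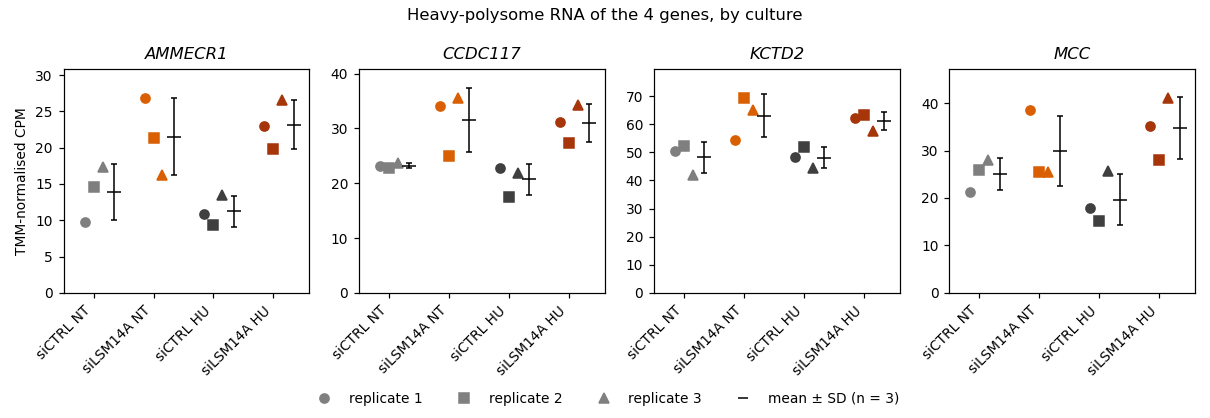
Heavy-polysome RNA of the 4 genes in each of the 12 cultures, in TMM-normalised CPM on axes that start at 0. Marker shapes give the replicate number and black bars the mean ± SD of 3 cultures. The siLSM14A and siCTRL groups are apart in all 4 panels under HU, and in NT they are apart for CCDC117 and KCTD2 and overlap for AMMECR1 and MCC.

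Of the 4 genes, 0 passed an adjusted p under 0.05 in polysomal RNA in NT, in HU or on average with edgeR without a block, where 0% of 12342, 12256 and 12515 genes were called higher with siLSM14A. At an unadjusted p under 0.05, 3 of the 4 were higher in NT (0.600% of all genes), all 4 in HU (3.29%) and all 4 on average (1.94%). DESeq2 called 0 of the 4 in NT, AMMECR1 in HU (adjusted p of 0.000324) and AMMECR1 and CCDC117 on average (adjusted p of 0.000451 and 0.0234), among 8, 22 and 38 genes called in either direction. With the replicate number as a block, edgeR called AMMECR1 (1.05, SE 0.14, adjusted p of 0.00166) and MCC (0.84, SE 0.13, adjusted p of 0.00940) in HU, among 0.326% of all genes in either direction. Same-numbered cultures of this contrast deviated together in all 3 pairs in total RNA, and in polysomal RNA with correlations of 0.045, 0.28 and 0.40. In edgeR without the block, leaving out replicate 3 of siCTRL NT also brought AMMECR1 past the threshold on average (0.94, adjusted p of 0.0420). Groups without overlap, with siLSM14A the higher, were found for 2 of the 4 genes in NT, where 2.91% of all genes had them, and for all 4 in HU, where 4.67% had them. The median log2 fold change of the 4 genes was 0.41 in NT, 0.71 in HU and 0.54 on average, against -0.01, 0.01 and 0.02 over all genes tested.

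The GC weighting of the polysomal libraries moved with these values. In HU it was 0.16, 0.42 and 0.05 in siCTRL and -0.16, 0.25 and -0.36 in siLSM14A, and in siLSM14A NT replicate 1 (-0.48) the AT-rich AMMECR1 was high and the GC-rich KCTD2 low. After the GC weighting of each library was corrected, AMMECR1 was at 0.89 (SE 0.14, edgeR adjusted p of 0.0791) and MCC at 0.81 (SE 0.20, edgeR adjusted p of 0.746) in HU. Averaged over the treatments, AMMECR1 was then at 0.76 (SE 0.11, edgeR adjusted p of 0.00636) and KCTD2 at 0.44 (SE 0.067, edgeR adjusted p of 0.00697), both past the threshold, as were 0.272% of all genes. CCDC117 was at 0.47 (SE 0.096, edgeR adjusted p of 0.0689) and MCC at 0.55 (SE 0.15, edgeR adjusted p of 0.314).

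**Figure D3:**
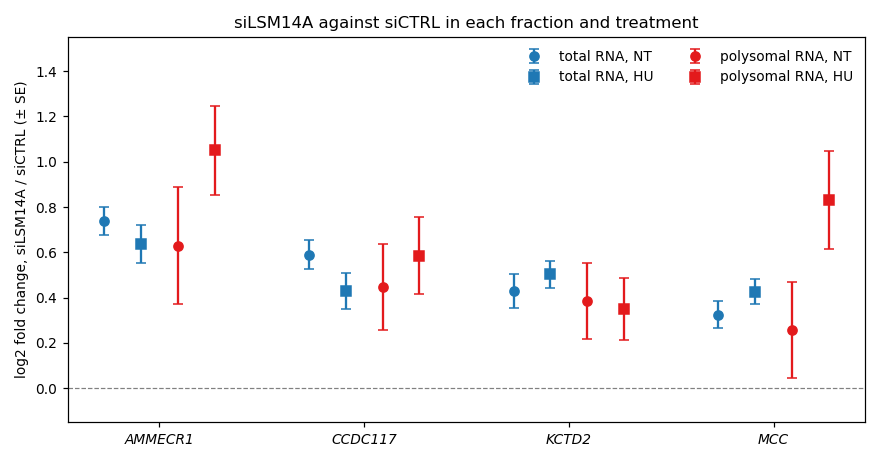
Log2 fold change of siLSM14A over siCTRL with its standard error, for each gene, fraction and treatment, from edgeR fits on the 6 libraries compared. Total RNA (blue) chose the genes. In polysomal RNA (red) the changes lie above 0 with errors up to 0.26, and those of AMMECR1 and MCC in HU are the largest.

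The siRNA difference in polysomal RNA did not pass a test for a change with HU in any of the 4 genes. The interaction was 0.60 for MCC (SE 0.33, unadjusted p of 0.0891), 0.44 for AMMECR1 (SE 0.34, unadjusted p of 0.212), 0.16 for CCDC117 (SE 0.25, unadjusted p of 0.530) and -0.02 for KCTD2 (SE 0.20, unadjusted p of 0.934). In edgeR, 0 of 12515 genes (0%) passed at an adjusted p under 0.05, with 134 at an unadjusted p under 0.05, and DESeq2 called 0. In total RNA, which chose the genes, the interaction was -0.10 for AMMECR1, -0.16 for CCDC117, 0.07 for KCTD2 and 0.10 for MCC, each with an SE of 0.078 to 0.11.

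HU itself, averaged over siCTRL and siLSM14A so that the contrast is independent of the selection, left the 4 genes near their untreated level. In total RNA the log2 change upon HU was -0.09 for AMMECR1 (SE 0.052), -0.03 for CCDC117 (SE 0.053), 0.02 for KCTD2 (SE 0.049) and -0.05 for MCC (SE 0.039). In polysomal RNA it was -0.11 for AMMECR1 (SE 0.17), -0.11 for CCDC117 (SE 0.13), -0.04 for KCTD2 (SE 0.098) and -0.08 for MCC (SE 0.16). The sign of these changes is not settled, since all but those of AMMECR1 and MCC in total RNA and CCDC117 in polysomal RNA crossed 0 under some alternative. With edgeR, 0 of the 4 were called in either fraction and 0% of all genes, of which 514 in total and 283 in polysomal RNA had an unadjusted p under 0.05, none of the 4 among them. DESeq2 called 2 genes in total and 0 in polysomal RNA, and none of the 4.

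Within the polysomal libraries of siCTRL cells, MCC was at -0.37 (SE 0.23), AMMECR1 at -0.33 (SE 0.24), CCDC117 at -0.19 (SE 0.18) and KCTD2 at -0.03 (SE 0.14) upon HU. In siLSM14A cells the same contrast was 0.22 (SE 0.23), 0.11 (SE 0.24), -0.03 (SE 0.18) and -0.04 (SE 0.14), respectively. Each of these 8 values was within 2 standard errors of 0. They share the untreated and treated libraries of the siRNA comparisons and are given as values only.

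Without GC correction, the share of each mRNA on heavy polysomes separated KCTD2 from the other 3 genes. In the log2 ratio of polysomal to total CPM of a culture, 0 stands for the loading of the average mRNA. For AMMECR1 the ratio was below 0 in all 12 cultures, from -1.25 to -0.43, and for MCC from -1.46 to -0.47. For CCDC117 it was below 0 in all 12 as well, from -0.83 to -0.19, as it was for 33.7% of all genes. For KCTD2 it was above 0 in all 12 cultures, from 0.05 to 0.61, as it was for 30% of all genes.

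Tested over the 4 conditions together, the log2 difference between polysomal and total RNA was -0.88 for MCC (SE 0.085, edgeR adjusted p of 2.24e-09) and -0.75 for AMMECR1 (SE 0.091, edgeR adjusted p of 7.37e-08). It was -0.42 for CCDC117 (SE 0.063, edgeR adjusted p of 2.22e-06) and 0.42 for KCTD2 (SE 0.054, edgeR adjusted p of 2.11e-07). All 4 were called, as were 84.4% of the 12855 genes, so that being called says little about these genes. The median over all genes was -0.06.

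This ratio followed base composition across genes, with a Spearman correlation of 0.67 with exon GC content over 12855 genes, which are not independent replicates. Genes within 1 percentage point of the exon GC content of AMMECR1 had a median of -0.64, those of CCDC117 -0.46, those of KCTD2 0.34 and those of MCC -0.16. AMMECR1, CCDC117 and KCTD2 thus lay near genes of their own composition, and MCC lay lower. With the GC correction, MCC was at -0.79 (SE 0.079, edgeR adjusted p of 3.80e-09) and AMMECR1 at -0.21 (SE 0.061, edgeR adjusted p of 0.00344). CCDC117 was then at -0.04 (SE 0.050, edgeR adjusted p of 0.481) and KCTD2 at 0.02 (SE 0.037, edgeR adjusted p of 0.556), so that the call was lost for both, and 78.4% of all genes were called.

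**Figure D4:**
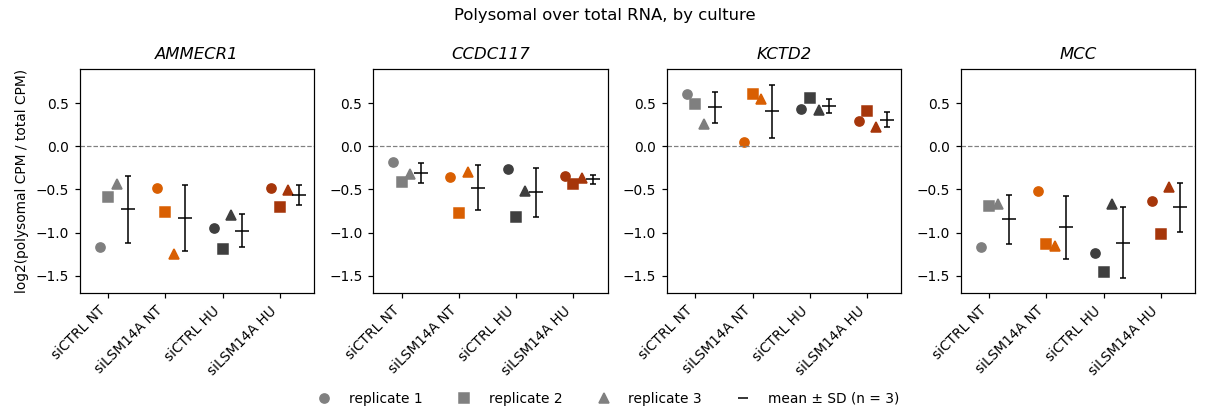
Log2 ratio of polysomal to total CPM for each gene in each of the 12 cultures, with the mean ± SD of 3 cultures as black bars. The dashed line at 0 is equal representation in both fractions. AMMECR1, CCDC117 and MCC lie below it and KCTD2 above it in all cultures. In HU the siLSM14A cultures are apart from the siCTRL cultures for AMMECR1, where they are higher, and for KCTD2, where they are lower. The ratios are without GC correction, and the share of all genes apart in this way was not counted.

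The change of TE with siLSM14A holds the total RNA that chose the genes and is given without a test. In NT it was -0.10 for AMMECR1 (SE 0.28), -0.15 for CCDC117 (SE 0.18), -0.04 for KCTD2 (SE 0.18) and -0.06 for MCC (SE 0.22). In HU it was 0.41 for AMMECR1 (SE 0.21), 0.15 for CCDC117 (SE 0.18), -0.16 for KCTD2 (SE 0.13) and 0.40 for MCC (SE 0.24). Because of the selection, the distance of these values from 0 in standard errors is not read as a result. With the replicate block, AMMECR1 and MCC in HU were at 0.41 (SE 0.12 for both). With the GC correction, AMMECR1 in HU was at 0.23 (SE 0.14) and MCC at 0.39 (SE 0.22). CCDC117 was then at 0.05 (SE 0.14) and KCTD2 at -0.03 (SE 0.10). With the block and the GC correction, AMMECR1 was at 0.23 (SE 0.12) and MCC at 0.41 (SE 0.12). For AMMECR1 in HU, the log2 ratios were -0.94, -1.19 and -0.80 with siCTRL and -0.48, -0.70 and -0.51 with siLSM14A, without overlap. For MCC in HU they were -1.24, -1.46 and -0.66 with siCTRL and -0.63, -1.02 and -0.47 with siLSM14A, with overlap. KCTD2 was apart in the other direction in HU, at 0.43, 0.56 and 0.41 with siCTRL and 0.29, 0.40 and 0.23 with siLSM14A. CCDC117 overlapped, at -0.27, -0.83 and -0.51 with siCTRL and -0.34, -0.44 and -0.37 with siLSM14A. These ratios are without GC correction, and the share of all genes whose groups are apart in them was not counted. Upon HU, averaged over siCTRL and siLSM14A, TE moved by -0.01 for AMMECR1 (SE 0.18), -0.07 for CCDC117 (SE 0.13), -0.04 for KCTD2 (SE 0.11) and -0.01 for MCC (SE 0.17), with signs that turned under alternatives for all but CCDC117. In edgeR, 0 of the 4 and 0% of 12855 genes were called, 253 genes and none of the 4 had an unadjusted p under 0.05, and DESeq2 called 0.

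Over the 12 total RNA libraries, the genes whose log2 CPM followed each of the 4 most closely were found by Pearson's correlation, as a description over libraries that share the siRNA contrast. AMMECR1 was most like HIPK3, a nuclear protein kinase (0.978), and CCDC117 (0.972). CCDC117 was most like AMMECR1 (0.972), the kinase HIPK1 (0.960) and the nuclear pore protein NUP58 (0.957). Nearest to KCTD2 were the tRNA methyltransferase subunit WDR4 (0.966), the TNF receptor adaptor TRAF1 (0.966) and the talin rod domain protein TLNRD1 (0.962). MCC was closest to ANKRD52, a subunit of a protein phosphatase complex (0.965), the transmembrane semaphorin SEMA6A (0.952) and HIPK3 (0.952). Of these, HIPK3 had a log2 fold change with siLSM14A of 0.42 in NT and 0.39 in HU. In the 12 polysomal libraries the correlation with its nearest gene was 0.70 for AMMECR1 and HIPK3, 0.79 for CCDC117 and AMMECR1, 0.75 for KCTD2 and WDR4, and -0.31 for MCC and ANKRD52.

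Close paralogs of AMMECR1 and KCTD2 were near their control level in total RNA, and none of CCDC117 or MCC was compared. AMMECR1L had a log2 fold change with siLSM14A of -0.01 (SE 0.061) in NT and -0.02 (SE 0.064) in HU. KCTD5 was at -0.06 (SE 0.073) and -0.08 (SE 0.066), and KCTD17 at 0.06 (SE 0.098) and -0.04 (SE 0.10). None of the 3 passed the test in total or polysomal RNA of either treatment.

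Nor did the nearest tested genes on the chromosome pass. Beside AMMECR1, TMEM164 was at -0.04 (SE 0.053) in total RNA of untreated cells, and RTL9, at a mean of 0.875 CPM, at -0.02 (SE 0.26). Beside CCDC117, the iron-sulfur cochaperone HSCB was at -0.04 (SE 0.094) and the stress transcription factor XBP1 at 0.10 (SE 0.060). Beside KCTD2, MRPL58 was at -0.06 (SE 0.081), and ATP5PD, which overlaps it on the other strand with a mean of 149.7 CPM, at -0.05 (SE 0.051). Beside MCC, YTHDC2 was at 0.11 (SE 0.099). DCP2, the mRNA decapping enzyme whose last exon overlaps that of MCC, was at 0.26 (SE 0.057, edgeR adjusted p of 0.0884) in NT and 0.13 (SE 0.089, edgeR adjusted p of 0.783) in HU. In polysomal RNA DCP2 was at 0.36 (SE 0.15, edgeR adjusted p of 0.982) averaged over both treatments.

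The pathways around 3 of the genes were read from lists of genes. With edgeR, among 18 genes of the CUL3 ligase and its BTB adaptors, 0 were called in any siRNA or HU comparison of either fraction. The smallest unadjusted p for siLSM14A in polysomal RNA over both treatments, where 0 of the 18 were under 0.05, belonged to KCTD13 at -0.23 (SE 0.12, unadjusted p of 0.0869). Among 9 genes of cytosolic iron-sulfur protein assembly around CCDC117, 0 were called, with MMS19 nearest at -0.17 (SE 0.16, unadjusted p of 0.288). Among 21 genes of WNT and beta-catenin signalling around MCC, 0 were called, with the beta-catenin ligase subunit BTRC nearest at 0.17 (SE 0.10, unadjusted p of 0.114). In that comparison none of the 9 or the 21 had an unadjusted p under 0.05, and DESeq2 called 0 genes of the 3 lists in any siRNA or HU comparison. The medians of these lists were -0.01, -0.05 and -0.01, against 0.02 over all genes. Between polysomal and total RNA, 8 of the 18 genes of the CUL3 list were higher on polysomes and 5 lower. Of the 9 iron-sulfur genes 8 were higher and 1 lower, and of the 21 WNT genes 9 were higher and 8 lower. Over all genes, 40.2% were higher and 44.2% lower. These counts are without GC correction, and this ratio followed exon GC content across genes.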

How the data were processed

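RNA was measured in 24 libraries, total and heavy-polysome RNA of 12 A2058 cultures, which were grouped by their deposited labels. The authors made poly(A)-selected stranded libraries, sequenced them with paired reads of 100 bases, aligned the reads to hg19 with STAR 2.6.1a and counted reads per gene of Gencode 34. What they deposited is the raw count of each gene in each library, and every column was used. Gene models here come from Gencode 44 lifted to hg19, which holds 19637 of the 20345 gene IDs, 19086 of them protein-coding. The 708 IDs not in it and the 551 other genes entered only the alternative that tested all genes.

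The test was edgeR 4.0.16 in R 4.3.3 on protein-coding genes (quasi-likelihood F-test, two-sided, TMM, with genes kept by filterByExpr at 10 counts and a total of 15), and p-values were adjusted by Benjamini and Hochberg over all genes of a test. The 4 genes were chosen on total RNA, so their siRNA contrasts in total RNA and in TE are a description, given without p-values. CPM values and ratios use TMM over all 24 libraries, correlations log2(CPM + 0.5). The GC correction used loess curves (span 0.3) of log2 CPM on exon GC content as offsets. The tests were tried on simulated counts first. DESeq2 1.42.0, RLE size factors, other filters, all genes, the replicate number and the culture as blocks, and leaving out each culture were alternatives.

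Besides the 4 genes and LSM14A, the text names the 3 genes most correlated with each (1 of these is not reported here), the paralogs AMMECR1L, KCTD5 and KCTD17, the nearest tested gene on each side, and, from each pathway list, genes called in a polysomal siRNA or HU comparison or else the one with the smallest p. The 4 genes and the lists were chosen with earlier results of these data known. Replicates were compared in 24 pairs for libraries deposited more than once. Their chi-square divided by the number of genes lay between 6.16 and 121, so none differed by less than sampling noise. Same-numbered cultures deviated together, each correlation above 0.1, for siCTRL HU and siCTRL NT in both fractions (0.27, 0.25 and 0.19 in total RNA, and 0.25, 0.18 and 0.45 in polysomal RNA). In total RNA they also did for siLSM14A HU with siCTRL HU (0.33, 0.18 and 0.25) and siCTRL NT (0.28, 0.20 and 0.16). They did not for the siRNA contrasts in polysomal RNA, nor for siLSM14A NT with any other condition in either fraction. With siCTRL NT, the latter gave -0.25, 0.26 and -0.22 in total RNA.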

Additional observations from a re-analysis of the deposited data

How the results depend on the processing

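In polysomal RNA of HU-treated cells the number of the 4 genes past the threshold went from 0 to 1 with DESeq2 and without a filter on low counts (AMMECR1 in both). With the replicate number as a replicate block it was 2, and with the replicate block and GC correction 2 as well (AMMECR1 and MCC in both). Same-numbered cultures of this contrast deviated together in every pair in total RNA but not in polysomal RNA, and 40 genes were called over all with the block. Averaged over the treatments, the number was 2 with DESeq2, 1 without a filter, 2 with the GC correction, 3 with the replicate block and GC correction, 0 with the block alone, and 0 to 1 when 1 culture was left out. For untreated cells and for the interaction it stayed at 0 in all alternatives. Between polysomal and total RNA it was 2 in place of 4 with the GC correction, with or without the block, and CCDC117 (0.058) and KCTD2 (-0.030) turned sign with both. Values near 0 turned as well. The interaction of KCTD2 in polysomal RNA was 0.059 with the GC correction and 0.060 with the block added (-0.12 to 0.050 without 1 culture). For HU in total RNA, KCTD2 was at -0.00449 with the GC correction and -0.00454 with the block added (-0.0070 to 0.058 without 1 culture), and CCDC117 at -0.063 to 0.0018 without 1 culture. For HU in polysomal RNA, AMMECR1 ranged from -0.21 to 0.00015, KCTD2 from -0.074 to 0.0010 and MCC from -0.19 to 0.049 without 1 culture. For HU in TE, AMMECR1 was at 0.032 with the GC correction, 0.034 with the block added and 0.012 with the culture as a block (-0.10 to 0.085 without 1 culture), MCC at 0.019 with the GC correction (-0.14 to 0.11), and KCTD2 at -0.13 to 0.016 without 1 culture. The cause of these moves was not tested.

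The siRNA difference in polysomal RNA kept its sign in all 15 alternatives per treatment for the 4 genes. In total RNA the genes were selected on this difference, so its sign there, kept in all 14 alternatives per treatment, is a description only. In untreated cells it ranged from 0.70 to 0.77 for AMMECR1 and 0.53 to 0.63 for CCDC117. For KCTD2 it was 0.35 to 0.48 and for MCC 0.28 to 0.38. In HU it was 0.56 to 0.70, 0.36 to 0.48, 0.47 to 0.53 and 0.41 to 0.44, in the same order. With 293 to 921 polysomal counts for AMMECR1 in a library, the spread between libraries rather than counting error limits what can be seen.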
